A study of Mus musculus with 8 samples.

Results

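The Notch genes described here are 9 of the 18193 genes that the array names by a single symbol. They are the receptors Notch1, Notch2 and Notch3, the ligands Jag1 and Dll1, and the transcription factors Hes1, Hey1, Heyl and Hes6. Every probe set annotated with one of these symbols and no other was taken, which gave 17 of the 45037 probe sets tested. All 9 genes had at least 1 probe set.

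The arrays were made from 8 cultures of C2C12, an established mouse line of myoblasts, the precursors of muscle fibres. Lentivirus, at a multiplicity of infection of 100, had delivered DOR siRNA to 4 cultures and scrambled RNA to the other 4. Both groups were amplified for 5 to 7 days and were sorted for the GFP that marks transduced cells (93 to 99% positive). Both then spent 4 days in differentiation medium with 5% horse serum, although other labels call them confluent myoblasts, so the stage at harvest is not settled. DOR is the protein of Trp53inp2, a nuclear receptor cofactor that also acts in autophagosome formation, and the labels do not say how the replicate cultures were derived, so p-values measure the spread between these cultures.

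Notch receptors are cut when a ligand on a neighbouring cell binds them. The released intracellular part enters the nucleus, joins the DNA-binding protein Rbpj and switches on genes of the HES and HEY families, which encode basic helix-loop-helix repressors. In mouse muscle this signal keeps satellite cells undifferentiated and restrains the myogenic factors. Hes6 differs from the other family members: it opposes Hes1 and is known to appear with differentiation of mouse myoblasts.

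Promoter windows of 6 of the 9 genes were found in the RefSeq-derived table (250 bases before to 50 after each annotated start), as 8 windows on build GRCm38.p6; Hes1, Hey1 and Heyl were not among them. The windows of Hes6 are shown because it is the member tied to the myogenic programme and both of its annotated starts carry the E-box CAGCTG, a form that MyoD-family factors bind, given in capitals. They lie on the minus strand of chromosome 1 at chr1:91413173-91413472 and chr1:91413989-91414288, and the E-box begins 150 and 171 bases before its start site.
Hes6 window 1: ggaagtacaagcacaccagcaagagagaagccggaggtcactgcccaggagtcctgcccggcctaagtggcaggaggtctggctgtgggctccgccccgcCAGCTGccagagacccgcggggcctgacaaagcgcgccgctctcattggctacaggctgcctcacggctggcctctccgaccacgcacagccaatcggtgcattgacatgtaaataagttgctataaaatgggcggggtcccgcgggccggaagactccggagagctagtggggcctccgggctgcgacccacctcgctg
Hes6 window 2: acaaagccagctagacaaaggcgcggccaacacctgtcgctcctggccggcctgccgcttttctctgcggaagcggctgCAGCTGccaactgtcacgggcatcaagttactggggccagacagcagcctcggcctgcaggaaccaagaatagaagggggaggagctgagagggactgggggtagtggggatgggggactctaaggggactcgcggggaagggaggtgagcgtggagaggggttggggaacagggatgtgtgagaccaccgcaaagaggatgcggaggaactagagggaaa
CAGCTG, which reads the same on both strands, was in 4 of the 8 member windows (Hes6, Jag1 and Dll1), and in 16.3% of all 32851 windows in the table. TGGGAA, the core letters bound by Rbpj, searched with its complement TTCCCA, was in 0 of the 8 and in 25.6% of all windows. Since windows of the targets Hes1, Hey1 and Heyl were not searched, that count does not bear on them. These are matches of letters and do not show binding.

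By the brighter of its probe sets (1452646_at), Trp53inp2 itself was reduced in all 4 knockdown cultures. It spanned 9.18 to 9.93 log2 units with DOR siRNA, against 10.92 to 11.55 with scrambled RNA (log2 difference -1.83 ± 0.17, SE; limma adjusted p = 0.00087), while the dimmer one (1444396_at) did not follow, with 8.03 to 8.30 in DOR siRNA arrays and 7.91 to 8.13 in scrambled ones. All 8 muscle markers lay at or above 6.18, the median level of the array's probe sets, against 0 of 5 endothelial markers, 2 of 4 blood markers, both within 0.1 of it, and 0 of the 2 adipocyte markers measured. Of the 8 muscle markers 1, Mef2c, fell, 5 had negative and 2 positive differences that did not pass, and with pairing by number Ckm was also called lower and Myf5 higher (limma adjusted p = 0.0063 and 0.044). Their summed log2 level was 93.3 to 94.1 with DOR siRNA and 94.9 to 96.5 with scrambled RNA, but without Mef2c it overlapped, at 83.3 to 84.9 and 83.7 to 85.5. The DOR siRNA 2 array stood apart in the spiked poly-A controls, where 3′ probe sets exceeded 5′ ones by 1.26 log2 units, against 0.49 to 0.75 on the other 7 arrays. The same measure for the cells' own transferrin receptor transcript was also highest there, at 1.63 against 0.94 to 1.43. The part of the muscle markers and of these measures in the results below was not tested, and values without DOR siRNA 2 are given where it moved a difference by over 1.5 times.

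None of the 17 Notch probe sets passed the limma test at an adjusted p under 0.05, in a comparison in which 3.22% of all probe sets did. The lowest adjusted p was 0.085, for a probe set of Heyl that passed when the cultures were paired by number, as described below. At an unadjusted p under 0.05 there were 4 of 17, a pair higher (both Notch3) and a pair lower (both Heyl), where 15.3% of all probe sets met that mark, 8.46% upward and 6.88% downward. The 17 differences, DOR siRNA minus scrambled, ran from -0.32 to 0.44 log2 units with a median of 0.10, against a median of 0.0021 over all probe sets. The 95% interval of every one of the 17 stayed inside a 2-fold change in either direction, with 0.86 as the farthest bound, and 9 of the 17 stayed within 0.5 log2 units. In these bulk samples fewer cells of a type and less RNA per cell cannot be told apart. The intervals are not adjusted for the number of probe sets and refer to RMA values, in which differences of dim probe sets are compressed.

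**Figure D1:**
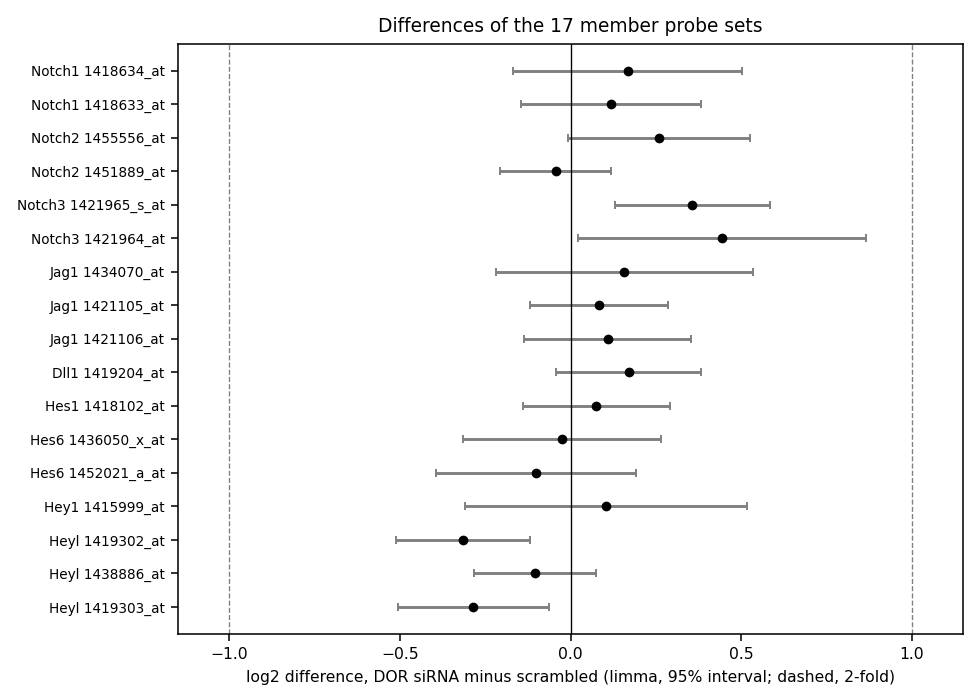
Log2 difference of each of the 17 Notch probe sets, DOR siRNA minus scrambled, with its 95% interval from limma; dashed lines mark a 2-fold change. The points run from -0.32 for Heyl to 0.44 for Notch3, and no interval reaches a dashed line.

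Among the receptors, Notch3 had the largest difference. Notch3 is a receptor that in mouse muscle is known to counter Notch1. Its brighter probe set (1421965_s_at) read 9.81, 10.10, 10.05 and 9.89 log2 units in DOR siRNA cultures 1 to 4, against 9.65, 9.49, 9.83 and 9.45 in scrambled cultures 1 to 4. The groups overlapped by a small margin: scrambled 3 was above DOR siRNA 1, and the other values were apart. The means were 9.96 ± 0.13 with DOR siRNA and 9.60 ± 0.18 with scrambled RNA (SD, n = 4 each), a difference of 0.36 ± 0.10 (SE; 95% interval 0.13 to 0.58; limma adjusted p = 0.095). The dimmer probe set (1421964_at) differed in the same direction, by 0.44 ± 0.19, with limma adjusted p = 0.30. It was highest on DOR siRNA 2, at 7.43 against 6.70 to 6.96 on the other DOR siRNA arrays and 6.11 to 7.01 on the scrambled arrays, and its difference was 0.29 without that array, smaller by over 1.5 times.

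Notch1, the receptor most studied in satellite cells, varied within each group more than between them. Probe set 1418634_at read 9.26, 9.32, 9.70 and 9.71 log2 units in DOR siRNA cultures 1 to 4, against 9.10, 9.06, 9.62 and 9.53 in scrambled cultures 1 to 4. In both groups cultures 3 and 4 were high and cultures 1 and 2 low. The difference between groups was 0.17 ± 0.15 (95% interval -0.17 to 0.50; limma adjusted p = 0.70), and the other probe set (1418633_at) gave 0.12 ± 0.12. Leaving out 1 array moved them to between 0.08 and 0.27 and between 0.05 and 0.22, lowest without scrambled 2 and highest without scrambled 3. Notch2, a receptor also present on satellite cells, read 9.84, 9.80, 9.37 and 9.50 with DOR siRNA and 9.56, 9.21, 9.25 and 9.43 with scrambled RNA by its brighter probe set (1455556_at). These overlapped, with DOR siRNA 1 and 2 above all scrambled arrays (difference 0.26 ± 0.12, interval -0.01 to 0.53; limma adjusted p = 0.35). Its dimmer probe set (1451889_at), at 6.13 with DOR siRNA and 6.17 with scrambled RNA and so below the median level of 6.18, had the other sign (-0.04 ± 0.07, and -0.01 without DOR siRNA 2).

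**Figure D2:**
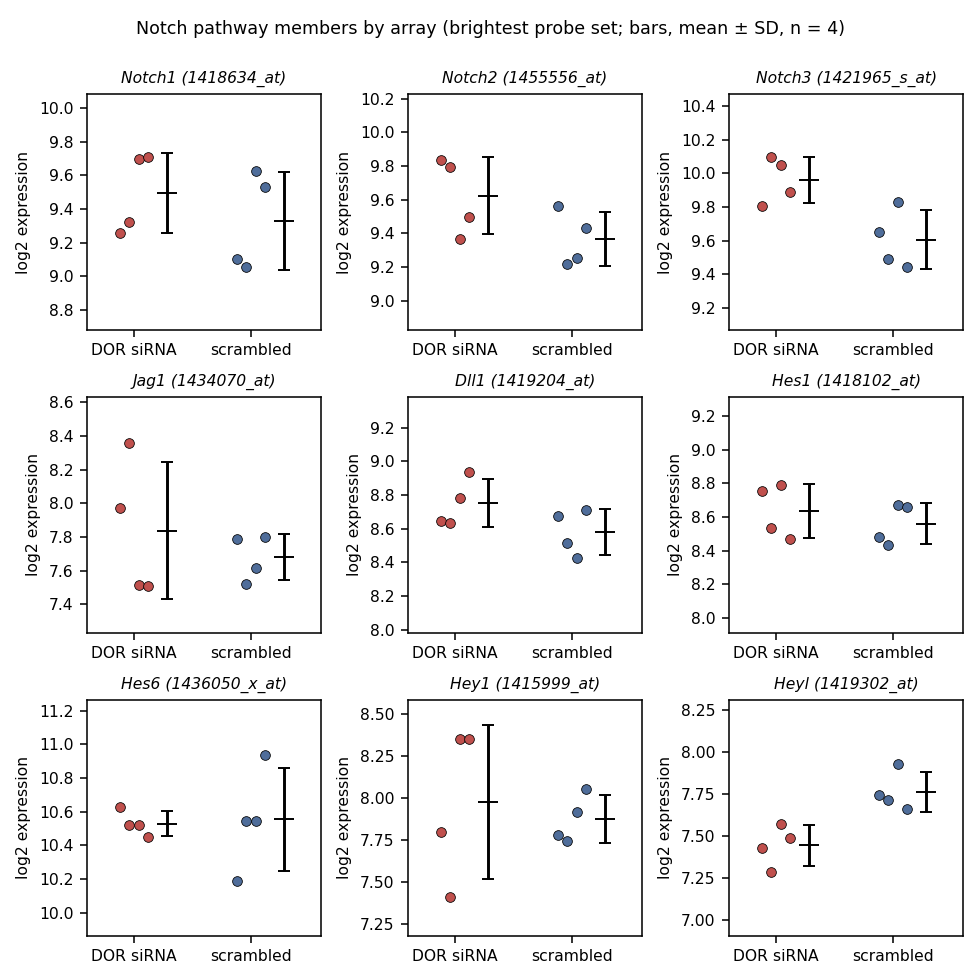
Log2 expression of the brightest probe set of each of the 9 Notch genes, one point per array, with DOR siRNA left of scrambled and the mean ± SD (n = 4) beside the points; each panel spans the same number of log2 units. Only Heyl, at 7.29 to 7.58 with DOR siRNA against 7.66 to 7.93 with scrambled RNA, shows groups that do not overlap.

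The ligands showed small positive differences, none past the test. Dll1, a Delta-type ligand of differentiating myoblasts, read 8.65, 8.63, 8.79 and 8.94 log2 units in DOR siRNA cultures 1 to 4 (1419204_at). In scrambled cultures 1 to 4 it read 8.67, 8.51, 8.43 and 8.71, so the groups overlapped, with DOR siRNA 3 and 4 above every scrambled array. The difference was 0.17 ± 0.10 (95% interval -0.04 to 0.38; limma adjusted p = 0.46), and 0.11 without DOR siRNA 4. Jag1, a Jagged-type ligand, had its brightest probe set (1434070_at) at 7.97, 8.36, 7.52 and 7.51 with DOR siRNA and at 7.79, 7.52, 7.62 and 7.80 with scrambled RNA. The DOR siRNA arrays were spread on both sides of the scrambled ones, with an SD of 0.41 among DOR siRNA arrays and 0.14 among scrambled ones. Its difference of 0.16 ± 0.17 (limma adjusted p = 0.76) was -0.02 without DOR siRNA 2, the array with the highest value. The other probe sets of Jag1, 1421105_at and 1421106_at, had means below that median level, with differences of 0.08 ± 0.09 and 0.11 ± 0.11. Without DOR siRNA 2 these were 0.15 and 0.01, and without DOR siRNA 4 the first was 0.02.

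Heyl, a HEY-family repressor that Notch switches on in mouse satellite cells, was the only member with groups that did not overlap. Its brightest probe set (1419302_at) read 7.43, 7.29, 7.58 and 7.49 log2 units in DOR siRNA cultures 1 to 4, against 7.74, 7.72, 7.93 and 7.66 in scrambled cultures 1 to 4. Every DOR siRNA array was below every scrambled array, a pattern shown downward by 4.05% of all probe sets and in either direction by 9.85%. Heyl averaged 7.45 ± 0.12 with DOR siRNA and 7.76 ± 0.12 with scrambled RNA (SD, n = 4 each), 0.803 times the scrambled level (log2 difference -0.32 ± 0.09, 95% interval -0.51 to -0.12; limma adjusted p = 0.085). With the cultures paired by number the same difference had limma adjusted p = 0.045, and Heyl was then the 1 member probe set called, where that fit called 6.28% of all probe sets and 2.81% downward. Both other probe sets were lower too but did not pass, 1419303_at by -0.29 ± 0.10 (limma adjusted p = 0.18) and 1438886_at by -0.10 ± 0.08 (0.63; -0.05 without DOR siRNA 1), and the mean over the 3 probe sets differed by -0.24 (limma adjusted p = 0.078). They measure 1 gene and are not independent of each other.

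Hes1, the founding Notch target of the family, showed little difference. It read 8.76, 8.53, 8.79 and 8.47 log2 units with DOR siRNA and 8.48, 8.44, 8.67 and 8.66 with scrambled RNA (1418102_at). The groups were interleaved, at 0.08 ± 0.10 (95% interval -0.14 to 0.29; limma adjusted p = 0.81), with 0.02 to 0.13 when 1 array was left out. Hey1, the HEY-family target that acts beside Heyl in mouse satellite cells, read 7.79, 7.41, 8.35 and 8.35 with DOR siRNA, against 7.78, 7.74, 7.92 and 8.05 with scrambled RNA (1415999_at). DOR siRNA 3 and 4 were the highest of the 8 arrays and DOR siRNA 2 the lowest, so the SD was 0.46 with DOR siRNA and 0.14 with scrambled RNA. Its difference was 0.10 ± 0.19 (interval -0.31 to 0.52; limma adjusted p = 0.88), and 0.29 without DOR siRNA 2.

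Hes6 was measured by 2 probe sets, one of which (1436050_x_at) has a suffix that Affymetrix gives to probe sets that may also bind other sequences. That probe set read 10.63, 10.52, 10.52 and 10.45 log2 units in DOR siRNA cultures 1 to 4, against 10.19, 10.54, 10.55 and 10.94 in scrambled cultures 1 to 4. The DOR siRNA values lay within the scrambled range, whose lowest and highest arrays were scrambled 1 and 4. The difference was -0.03 ± 0.13 (95% interval -0.32 to 0.27; limma adjusted p = 0.96), and the other probe set (1452021_a_at) gave -0.10 ± 0.13 (limma adjusted p = 0.82). Without scrambled 4 they were 0.10 and 0.02, and the second was -0.02 without DOR siRNA 2.

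Whether the numbers pair the cultures is not settled. Pairing by number changed the standard error to a degree that differed between probe sets. With Notch1 (1418634_at), subtracting each scrambled culture from the DOR siRNA culture of its number gave 0.16, 0.26, 0.07 and 0.18, and the standard error was 0.07 with pairing and 0.15 without. The paired adjusted p was 0.26, so this too did not pass. Among the 17 probe sets, pairing lowered the standard error most for this one. For Hes6 (1436050_x_at) the standard error was 0.13 both ways, and subtracting by number gave 0.44, -0.03, -0.03 and -0.49. For Heyl (1419302_at) these differences were -0.31, -0.43, -0.35 and -0.17, and for Notch3 (1421965_s_at) 0.15, 0.61, 0.22 and 0.45 (paired limma adjusted p = 0.057). In 5 of the 17 probe sets all 4 pairs went one way, as they did in 26.9% of all probe sets.

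**Figure D3:**
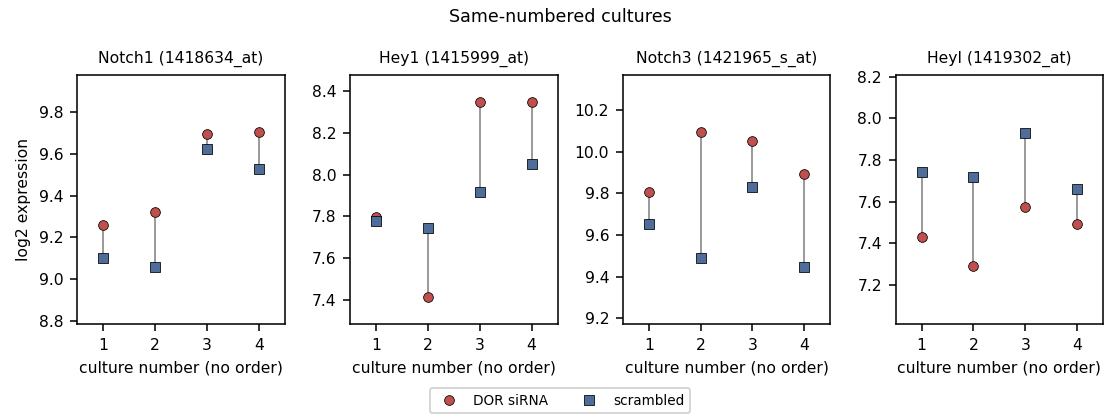
Log2 expression of 4 Notch genes by culture number, with DOR siRNA (circles) and scrambled (squares) of the same number joined by a line. Notch1 is high in cultures 3 and 4 of both groups, and Heyl is lower with DOR siRNA in 4 of 4 pairs.

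Other genes of the pathway were examined in groups by role, each gene by its brightest probe set. Of 53 listed, 49 were measured, 2 rose, 1 fell and 46 did not pass, with a median difference of 0.04 against 0.02 over all genes, of which 4.56% were called, 3.11% upward and 1.45% downward. The number that rose was 0 without DOR siRNA 3 or scrambled 1, and 1 without DOR siRNA 2, DOR siRNA 4 or scrambled 2, while 2 fell without scrambled 4. Fbxw7, the substrate receptor of a ubiquitin ligase that marks the Notch intracellular part and cyclin E for destruction, was the gene that fell. It read 8.32, 8.44, 8.39 and 8.40 log2 units in DOR siRNA cultures 1 to 4, against 8.87, 8.92, 9.08 and 8.77 in scrambled cultures 1 to 4 (1451558_at). The groups were far apart and the DOR siRNA values close together (log2 difference -0.52 ± 0.08, limma adjusted p = 0.0085). Its other probe set (1424986_s_at) fell as well, by 0.75 ± 0.13 (limma adjusted p = 0.012), and the brighter one passed whichever array was left out (limma adjusted p between 0.0060 and 0.032).

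Tle2, a Groucho-family corepressor that HES proteins recruit, rose. Its values were 8.22, 8.65, 8.36 and 8.07 log2 units with DOR siRNA and 7.66, 7.62, 7.83 and 7.55 with scrambled RNA (1436244_a_at). Each DOR siRNA array was above each scrambled array, and DOR siRNA 2 was the highest (difference 0.66 ± 0.12, limma adjusted p = 0.015; 0.55 without DOR siRNA 2). The call was lost without DOR siRNA 3 (limma adjusted p = 0.053) or scrambled 1 (0.050, just over the threshold). Its relatives Tle1, Tle3 and Tle4 were among the 12 of 13 nuclear complex and corepressor genes that did not pass, as was Rbpj at 0.05 ± 0.09.

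Dtx4, a Deltex-family protein that modulates Notch traffic, also rose, to 10.63, 10.99, 10.94 and 10.78 log2 units with DOR siRNA, against 10.46, 10.25, 10.55 and 10.24 with scrambled RNA (1436545_at). The groups did not overlap (difference 0.46 ± 0.10, limma adjusted p = 0.039). This call was less firm than that of Fbxw7: when each of the 8 arrays was left out, it was kept without DOR siRNA 1 only, and the highest limma adjusted p was 0.11. The other probe set of Dtx4 (1455711_at) did not pass (0.19 ± 0.12, and 0.30 without DOR siRNA 2). In the endocytosis and turnover group, 9 of 11 genes did not pass, the inhibitor Numb among them.

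No gene passed in the remaining groups. Lfng, the Fringe sugar transferase that alters the ligand preference of Notch, had the smallest p of the 5 glycosylation genes and read 7.48, 7.69, 7.57 and 7.66 log2 units with DOR siRNA, against 7.01, 6.75, 7.55 and 7.07 with scrambled RNA (1420643_at). Scrambled 3 alone lay among the DOR siRNA values (difference 0.50 ± 0.14, limma adjusted p = 0.087), and without it the difference was 0.65 (limma adjusted p = 0.019). Pofut1, which adds the fucose that Fringe extends, differed by 0.26 ± 0.12 (0.32), and by 0.14 without DOR siRNA 2. Of 8 receptor cleavage genes the smallest p were those of Psen2, a presenilin of gamma-secretase (-0.30 ± 0.14, limma adjusted p = 0.37), and Ncstn, its nicastrin subunit (0.15 ± 0.09, 0.49). Of the 6 other receptors and ligands they were those of Jag2 (0.12 ± 0.08, 0.54) and Dlk1 (0.07 ± 0.07, 0.74), and of the 6 other targets those of Hes5 (0.10 ± 0.09, 0.73) and Hes2 (-0.09 ± 0.08, 0.69). The last 6 also included Nrarp, a feedback inhibitor that Notch induces, which did not pass. Dim signals limit what these last groups can show. Hes5 and Hes2 averaged 4.64 and 4.97 log2 units over the 8 arrays, below the median level of 6.18. Another of these targets averaged 2.96, and the dimmest of the other receptors and ligands 4.53. Nrarp, at 6.24, was just above the median level. Without DOR siRNA 2 the differences of Jag2, Hes5 and Hes2 were 0.08, 0.15 and -0.06.

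**Figure D4:**
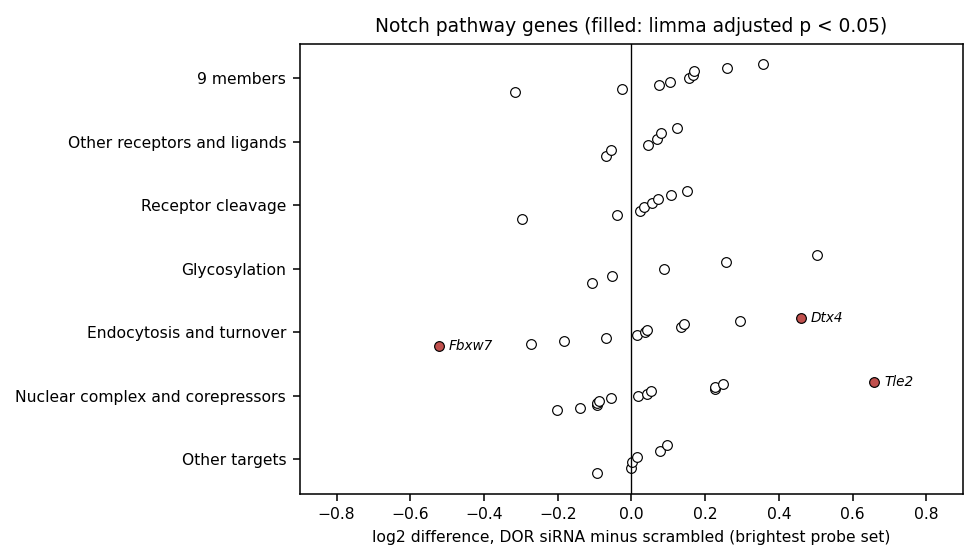
Log2 difference, DOR siRNA minus scrambled, of the brightest probe set of each of the 9 Notch genes (top) and of 49 other pathway genes by role; filled points passed limma at an adjusted p under 0.05. Fbxw7 lies at -0.52, Dtx4 at 0.46 and Tle2 at 0.66, and no point of the top group is filled.

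For the 3 members with the smallest p, the genes with the most similar profile over the 8 arrays were found among 11264 genes at or above the median level. Closest to Heyl were Frmd4b (Pearson r = 0.982), Kctd5 (0.981) and Ttn (0.980), the giant elastic protein of the sarcomere. Closest to Notch3 were Zfp385a (0.986), Dtx4 (0.985) and Pomgnt2 (0.981), and closest to Notch2 were Zfp266 (0.964), Glt8d1 (0.964) and Dnajc10 (0.949). These values describe 8 arrays that share a difference between groups and were picked as the highest of many. Of the 9 genes named, Dtx4 was the 1 that passed the limma test itself, and with pairing Frmd4b, Kctd5 and Ttn passed too (limma adjusted p = 0.0063, 0.036 and 0.0074).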

How the data were processed

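Expression was measured on 1-colour Affymetrix arrays, 4 per group, from 25 ng of amplified total RNA. The values deposited by the authors are log2 expression per probe set made with RMA, per the submitters' processing notes, with no version or options stated there. RMA makes array distributions alike, so a shift of all transcripts would not show. Array correlations were 0.988 to 0.997 and no arrays were identical. The number of arrays limits the precision.

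Of 45101 probe sets, 64 controls were left out. Symbols came from the platform annotation, and probe sets with several symbols (932) or none (9160) were not named. Limma 3.58.1 in R 4.3.3 compared the groups over all 45037 probe sets, with group alone in the model and Benjamini-Hochberg adjustment, as two-sided tests. An error beside a difference is its SE. The steps were tested on simulated data in which 200 probe sets were changed. Changes of 0.5 log2 units, larger than any of the 17 member differences, were called in 47.6% of cases. Changes of 1 were called in 95.2%, and 6.03% of calls were false. The simulation changed a far smaller share of probe sets than the 3.22% called in the data, which alters the adjusted threshold. Its noise was independent between arrays. These percentages therefore do not give the rate at which a member difference of that size would be called. Figures used matplotlib 3.10.9. A pathway gene is represented by its brightest probe set.

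For arrays that share a number, deviations from the group mean correlated at 0.149, 0.192, 0.142 and 0.468, each above 0.1. Arrays of unlike number were not compared in this way, so these values do not settle whether the numbers pair the cultures. The values given are from the unpaired model, and the paired fit, an alternative, is quoted where it changes a call. The 14 alternatives were pairing, leaving out each array, a variance trend with a robust prior, cyclic loess, median centring, a level filter, and averaging a gene's probe sets. Named genes were all members, all called pathway genes (or the 2 with the smallest p in a group) and the 3 most similar genes of 3 members; Numb, Rbpj, Nrarp and the Tle1, Tle3 and Tle4 group were added after their values were seen. Members and lists were chosen with earlier results of these data known.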

Additional observations from a re-analysis of the deposited data

Results flagged for a closer look

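In 2 of 80 sets of 4 arrays examined, 1 array lay far from the other 3. The sets covered the members, Trp53inp2, the called pathway genes, and the 2 with the smallest p in groups without a call. Markers, similar genes and genes added later were not among them. Of these, Tle3 (1419655_at) read 9.88 on DOR siRNA 2, against 9.50 to 9.55 on the other DOR siRNA arrays. It read 9.37 on scrambled 4, against 9.79 to 9.86 on the other scrambled arrays. About 1 in 20 sets would have such an array by chance. The dimmer probe set of Fbxw7 (1424986_s_at) read 7.72 on DOR siRNA 2, against 7.14 to 7.20 on the other DOR siRNA arrays, a gap of 0.884 of the range. Psen2 (1425869_a_at) read 8.55 on DOR siRNA 4, against 8.81 on the other 3, a gap of 0.978 of the range, and scrambled 4 was the lowest scrambled array too, at 8.61. None of the 17 Notch probe sets had such an array.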

How the results depend on the processing

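The alternatives for the pathway list, the markers and the similar genes were added after the data were seen. With the replicate numbers as a block, 1 member probe set was called lower (Heyl, adjusted p = 0.045) in place of 0. No member probe set was called under any other alternative, and pairing changed no call among the named pathway genes and Trp53inp2; among the markers and the similar genes it added Ckm, Myf5, Frmd4b, Kctd5 and Ttn. Leaving out 1 array gave 0 to 2 pathway genes higher and 1 to 2 lower, and averaging each gene's probe sets gave 1 higher. The genes counted as higher were not always Tle2 and Dtx4. Without scrambled 3, Lfng passed and Dtx4 did not (limma adjusted p = 0.019 and 0.055). Without scrambled 4 the count was also 2, and Dtx4 did not pass (limma adjusted p = 0.059). Leaving out arrays turned the sign of 4 member probe sets, none of them called: Jag1 (1434070_at) ran from -0.016 without DOR siRNA 2 to 0.27, and Hey1 from -0.020 without DOR siRNA 3 or 4 to 0.29. Hes6 ran from -0.15 to 0.10 (1436050_x_at; 0.0017 without DOR siRNA 4) and from -0.19 to 0.018 (1452021_a_at), with both positive values without scrambled 4. The mean over both probe sets of Notch2 was 0.11, opposite to the dimmer one. Psen2 passed without scrambled 4 (adjusted p = 0.044), and Dtx4 did not pass in the mean over its probe sets (adjusted p = 0.053). Values were the same in direction and call for 381 of 401 comparisons of single genes or probe sets with an alternative. Dim probe sets limit what can be seen: 3 of the 17 had a mean below the median level.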
